A study of Mus musculus with 7 samples.

Results

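The collagens and laminins, the chains that build the fibers and sheets of the extracellular matrix, were described in RNA-seq of mouse lung tissue. Members were all genes whose symbol has the form Col, a number, a and a number, or Lama, Lamb or Lamc and 1 digit. This gave 55 of the 22447 genes measured, 44 collagens and 11 laminins, and the rule used no measured value. The study had 7 libraries of total RNA in 3 groups. The tumors were 3 lung tumors with the genotype EZH2 overexpression (tumors 1 to 3). The OE normal lungs were 2 normal lungs of that same genotype, and the WT lungs were 2 normal lungs of wild-type genotype. The tumors and the OE normal lungs thus share the overexpressed EZH2, the enzyme that methylates histone H3 at lysine 27, and only the WT lungs lack it. The labels name no promoter or cell type driving EZH2, no strain and no age, and do not say whether the libraries of a group came from separate animals. The sex-linked genes given below put tumor 1 and OE normal 1 in other animals than the remaining libraries of their groups. The p-values cover only the variation among these libraries, which may be technical between tumors 2 and 3 and between the WT lungs. The labels give lung tissue as the source, while their growth text also describes culture of minced nodules, and which of these the RNA came from is not stated.

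Collagens are built from alpha chains wound into triple helices. Fibrillar collagens, types I, III and V among them, form the tensile fibers of the lung interstitium and airway walls and are made mainly by fibroblasts. Type IV collagen and the laminins form the paired networks of the basement membrane, the sheet under epithelium and around capillaries. A laminin is a trimer of 1 alpha, 1 beta and 1 gamma chain, and in the alveolus the sheets of epithelium and capillary are fused. Type VI collagen forms beaded filaments beside the basement membrane, while types XV and XVIII carry heparan or chondroitin sulfate chains and sit in or next to it.

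Levels are FPKM (fragments per transcript length and mapped fragments), which are scaled per length, so that levels of different genes can be set side by side. Summed FPKM ran from 466289 to 503550 in the tumors, from 405166 to 420135 in the OE normal lungs and from 449783 to 455538 in the WT lungs. No read counts were used, and low FPKM steps put the relative depth of the deepest library at 1.87 times that of tumor 1, the shallowest. Ezh2 had 8.48, 23.5 and 22.6 FPKM in tumors 1, 2 and 3, 10.2 and 11.5 in OE normal lung, and 3.72 and 2.58 in WT lung. By Xist and Eif2s3y, tumor 1 was male and tumors 2 and 3 female, OE normal 1 was male and OE normal 2 female, and both WT lungs were male. Of 9 alveolar type 2 cell markers 7 were higher in the tumors in both comparisons. The 9 summed to 43901, 12749 and 12732 FPKM in tumors 1, 2 and 3. In OE normal lung they summed to 17266 and 12522, and in WT lung to 19109 and 15388. Only in tumor 1 was this sum above all lungs, and tumor 1 stood apart from the other tumors in most genes.

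A gene was tested when it reached 1 FPKM in at least 2 libraries. Differences are in log2(FPKM + 1), which understates the change of low genes, and a gene is called higher or lower at an adjusted p below 0.05 (limma, Benjamini-Hochberg over 14057 genes). Of the 55 members 38 were tested, 27 collagens and all 11 laminins. Against OE normal lung, 17 of the 38 (44.7%) were called in the tumors, beside 38.1% of all genes tested. Of these, 6 were higher (background 13.1%) and 11 lower (background 24.9%). The split was 4 higher and 14 lower under TPM scaling and 8 and 8 under quantile normalization. Against WT lung, 18 of the 38 (47.4%) were called, beside 38.2% of all genes. Of these, 4 were higher (background 15.0%) and 14 lower (background 23.2%). The median difference of the 38 members was -0.27 against OE normal lung and -0.49 against WT lung, beside -0.11 and -0.06 over all genes tested. Without tumor 1, which stood apart, 29 members were called against OE normal lung and 30 against WT lung, while 68.4% and 67.1% of all genes were. The 2 comparisons share the 3 tumors. In each call of both comparisons the tumor values lay wholly above or wholly below those of the lungs they were set against. The share of all called genes with such a separation is not given here, so the separation adds no support to the calls. Some members called lower passed the level filter only because they were high in the normal lungs. Col4a6 and Col8a2 reached 1 FPKM in no tumor. Col7a1, Col13a1, Lama2, Lama3 and Lamc3 reached it in tumor 1 alone among the tumors, and so needed a normal lung to pass. The shares called, and the direction of the calls of these genes, are thus a description and carry no further weight.

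**Figure D1:**
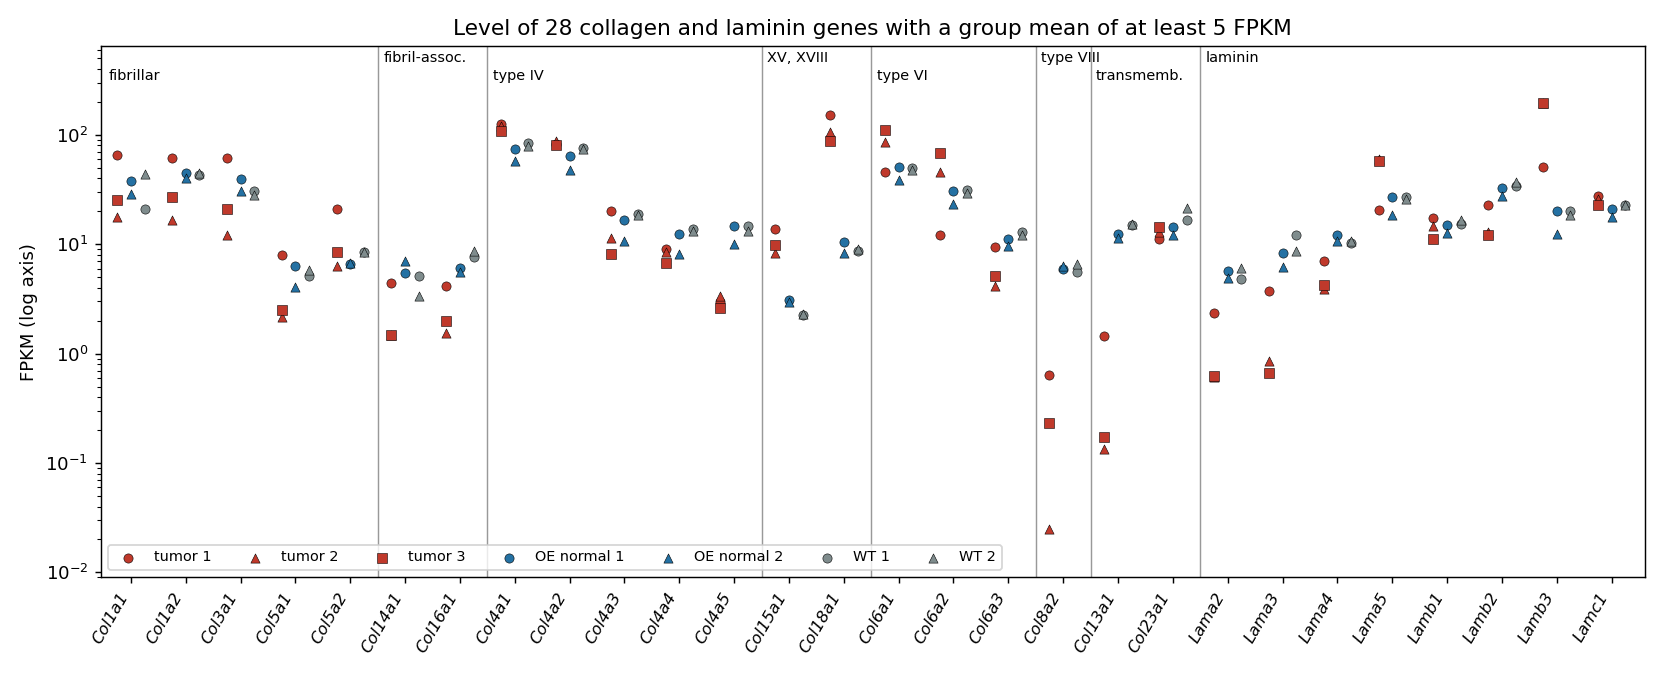
FPKM (log axis) in each of the 7 libraries for 28 members whose mean reached 5 FPKM in any group, ordered by class, 1 point per library. Col18a1 and Lamb3 show the tumor points well above all 4 lungs, Col13a1 and Col8a2 well below, and in Col1a1, Col1a2, Col3a1, Col5a1 and Col5a2 tumor 1 lies above all 4 lungs and tumor 2 below all 4.

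The marker genes of several other cell types also differed between these groups. The 10 fibroblast markers summed to 89.8 to 368 FPKM in the tumors, 1619 to 1765 in OE normal lung, and 2093 to 2094 in WT lung, and 6 of 10 were lower in the tumors in both comparisons. Inmt and Mfap4 carried most of the lung sums, and the other 8 fibroblast markers summed to 253, 69.6 and 68.0 FPKM in tumors 1, 2 and 3, 298 and 303 in OE normal lung, and 292 and 307 in WT lung, so that tumor 1 lay near the lungs without these genes, a split chosen after their values were seen. Dcn, the fibril proteoglycan decorin, was higher in tumor 1 (164 FPKM) than in any lung (89.3 to 102) and was not called. The 10 endothelial markers summed to 119 to 164 FPKM in the tumors, 1402 to 1606 in OE normal lung, and 1668 to 2019 in WT lung, and all 10 were lower in both comparisons. The 4 tested mesothelial markers were also lower in both comparisons. Of 9 smooth muscle and pericyte markers 6 were lower, 1 was higher and 2 were not called in each comparison. These 9 summed to 429, 104 and 131 FPKM in tumors 1, 2 and 3. In OE normal lung they summed to 335 and 361, and in WT lung to 462 and 646, so tumor 1 was not below OE normal lung. No marker of these lists was at 0 in all 3 tumors. In bulk tissue, fewer cells of a type and less RNA per cell cannot be told apart, and the part of these shifts in the results was not tested.

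Among the basement membrane chains, the tumors had more of the ubiquitous type IV pair and far less of the alpha5 and alpha6 chains. Col4a1 and Col4a2 encode the alpha1 and alpha2 chains, which form the type IV trimer found in nearly all basement membranes. Col4a1 had 126, 121 and 108 FPKM in the tumors, against 73.5 and 57.3 in OE normal lung, and 84.9 and 79.8 in WT lung. All 3 tumors lay above all 4 lungs. The difference was 0.85 (SE 0.15, limma adjusted p = 0.00591) against OE normal lung and 0.52 (SE 0.15, adjusted p = 0.0356) against WT lung. Col4a2 had 82.0, 87.4 and 79.9 FPKM in the tumors, 63.5 and 47.4 in OE normal lung, and 76.1 and 73.5 in WT lung. It was higher against OE normal lung (0.59, SE 0.15, limma adjusted p = 0.0234) and missed the threshold against WT lung, where the values lay close together (0.15, adjusted p = 0.455). The Col4a1 to Col4a2 ratio was 1.35 to 1.53 in the tumors, 1.16 to 1.21 in the OE normal lungs and 1.09 to 1.12 in the WT lungs, with no overlap. The Col4a1 call against WT lung ended without tumor 2, tumor 3 or either WT lung (adjusted p 0.0601 to 0.195), and under both TPM scalings and quantile normalization (0.0663 to 0.0921). The Col4a2 call ended without tumor 2, tumor 3, OE normal 2 or either WT lung (adjusted p 0.055 to 0.124), and under both TPM scalings and with only the 2 groups compared (0.0531 to 0.113).

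The type IV genes lie in pairs that start head to head, and the windows around their starts are shown because the 2 genes of one pair rose together against OE normal lung and the 2 genes of another fell together. Sequences are from RefSeq (GRCm38.p6), each 300 bases, 250 before and 50 after an annotated start, 5′ to 3′ on the strand of the gene. Capitals mark the CCAAT box (CCAAT) and the GC box (GGGCGG), on either strand, the TATA box (TATAAA) and the AP-1 site (TGANTCA), searched in the same way, being absent from all windows shown. Matches of different motifs did not overlap in them. The first window, chr8:11312555-11312854 on the plus strand, holds the starts of both Col4a2 and Col4a1, which lie 21 bases apart on opposite strands. The next windows, chrX:141475169-141475468 on the plus strand and chrX:141474027-141474326 on the minus strand, belong to Col4a5 and Col4a6, whose starts lie 1343 bases apart.
Col4a2 and Col4a1: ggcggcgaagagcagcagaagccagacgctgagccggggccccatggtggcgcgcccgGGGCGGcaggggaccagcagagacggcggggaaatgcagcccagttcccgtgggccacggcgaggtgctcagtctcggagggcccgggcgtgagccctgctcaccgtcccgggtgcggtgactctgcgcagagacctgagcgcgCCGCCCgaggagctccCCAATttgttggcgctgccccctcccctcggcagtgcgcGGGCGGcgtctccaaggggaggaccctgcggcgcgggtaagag
Col4a5: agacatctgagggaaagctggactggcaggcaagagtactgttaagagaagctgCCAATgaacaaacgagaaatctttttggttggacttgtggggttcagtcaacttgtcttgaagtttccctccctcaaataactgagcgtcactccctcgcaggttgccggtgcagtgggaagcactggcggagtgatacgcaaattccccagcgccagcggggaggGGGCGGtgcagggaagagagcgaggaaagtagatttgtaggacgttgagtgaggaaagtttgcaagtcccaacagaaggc
Col4a6: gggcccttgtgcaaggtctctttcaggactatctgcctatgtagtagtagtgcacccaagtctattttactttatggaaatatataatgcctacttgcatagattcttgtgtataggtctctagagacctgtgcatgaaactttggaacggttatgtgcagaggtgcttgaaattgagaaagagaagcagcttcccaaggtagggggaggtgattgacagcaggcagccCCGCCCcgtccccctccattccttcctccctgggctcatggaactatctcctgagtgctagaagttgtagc
The shared Col4a1 and Col4a2 window had 1 CCAAT box, 3 GC boxes and 33 CpG, more CpG than 91.4% of the 32851 mouse windows of this kind. The Col4a5 window had 1 CCAAT box, 1 GC box and 11 CpG, and the Col4a6 window 1 GC box and 3 CpG. Over all windows the median was 7 CpG, and 37.4% held a CCAAT box, 35.7% a GC box, 13.6% a TATA box and 7.81% an AP-1 site. Windows were found for 40 of the 55 members, 44 windows in all, of which 14 held a CCAAT box, 26 a GC box, 5 a TATA box and 1 an AP-1 site.

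Col4a5 and Col4a6 encode the alpha5 and alpha6 chains, which are found in specialised basement membranes such as those of the kidney, the airway and smooth muscle. Col4a5 had 2.94, 3.37 and 2.60 FPKM in the tumors, against 14.6 and 10.1 in OE normal lung, and 14.8 and 13.1 in WT lung. Col4a5 was lower, with a difference of -1.74 (SE 0.19, limma adjusted p = 0.00118) against OE normal lung and -1.92 (SE 0.19, adjusted p = 8.36e-04) against WT lung. Col4a6 had 0.0183, 0.0133 and 0.0505 FPKM in the tumors, 3.97 and 3.84 in OE normal lung, and 4.72 and 5.07 in WT lung. Its transcript was thus close to 0 in each tumor and at a few FPKM in each lung. Col4a6 was lower, with a difference of -2.25 (SE 0.12, limma adjusted p = 2.74e-04) against OE normal lung and -2.52 (SE 0.12, adjusted p = 1.65e-04) against WT lung. Col4a3 and Col4a4 encode the partners of the alpha5 chain in the trimer of kidney glomerulus and alveolus. Col4a3 had 20.1, 11.5 and 8.19 FPKM in the tumors, 16.7 and 10.6 in OE normal lung, and 18.8 and 18.5 in WT lung, and was called in neither comparison. Col4a4 had 8.98, 8.55 and 6.78 FPKM in the tumors, 12.3 and 8.17 in OE normal lung, and 13.7 and 13.2 in WT lung. It was lower against WT lung only (-0.67, SE 0.20, limma adjusted p = 0.0408), and that call ended without tumor 2, tumor 3 or either WT lung (adjusted p 0.085 to 0.183), and with no filter, under quantile normalization and with sex as covariate (0.0557 to 0.124). Of the 6 type IV genes 2 were thus higher and 2 lower against OE normal lung, and 1 was higher and 3 lower against WT lung. As a share of all type IV FPKM, Col4a5 made up 1.22 to 1.46% in the tumors, 7.36 to 7.92% in the OE normal lungs and 6.45 to 6.95% in the WT lungs, while Col4a1 made up 52.2 to 52.6% in the tumors, 39.8 to 41.7% in the OE normal lungs and 39.3 to 39.9% in the WT lungs.

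Col18a1 rose more than any other tested member in both comparisons. It encodes the core of the heparan sulfate proteoglycan collagen XVIII, whose C-terminal fragment is endostatin. It had 150, 107 and 88.0 FPKM in the tumors, against 10.5 and 8.24 in OE normal lung, and 8.59 and 9.09 in WT lung. The tumor mean was 12.3 times that of OE normal lung (difference 3.46, SE 0.24, limma adjusted p = 3.36e-04) and 13.0 times that of WT lung (3.53, SE 0.24, adjusted p = 2.74e-04). Col18a1 is thereby among the most abundant collagens in the tumors, with Col4a1, while in the lungs it lay below Col1a1, Col1a2 and Col3a1 in each library. Its relative Col15a1, the core of collagen XV, had 13.7, 8.29 and 9.75 FPKM in the tumors, 3.12 and 2.98 in OE normal lung, and 2.25 and 2.29 in WT lung. It was higher by 1.49 (SE 0.21, limma adjusted p = 0.00291) against OE normal lung and by 1.80 (SE 0.21, adjusted p = 0.0015) against WT lung. Both genes are known from capillary basement membranes, and here they were higher in tumors in which the 10 endothelial markers were lower. Tumor 1 had the most of both, and both calls held under each alternative setting and without any 1 library. Col18a1 has 2 annotated starts 52825 bases apart, from which its short and longer forms begin, and the FPKM values do not separate these. The windows around both, chr10:77166481-77166780 and chr10:77113656-77113955, both on the minus strand, are shown for this gene because of the size of its difference.
Col18a1, upstream start: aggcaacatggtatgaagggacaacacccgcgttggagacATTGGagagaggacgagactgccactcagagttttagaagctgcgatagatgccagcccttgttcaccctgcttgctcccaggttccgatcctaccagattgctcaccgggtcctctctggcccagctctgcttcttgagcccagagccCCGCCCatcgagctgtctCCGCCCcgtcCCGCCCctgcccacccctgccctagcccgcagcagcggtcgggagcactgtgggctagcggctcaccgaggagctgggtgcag
Col18a1, downstream start: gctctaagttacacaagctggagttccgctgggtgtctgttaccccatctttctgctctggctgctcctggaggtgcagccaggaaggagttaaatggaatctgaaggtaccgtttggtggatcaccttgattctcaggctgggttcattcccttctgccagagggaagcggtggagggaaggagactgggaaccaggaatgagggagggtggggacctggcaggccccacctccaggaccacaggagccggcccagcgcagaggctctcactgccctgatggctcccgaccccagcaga
The window of the upstream start had 1 CCAAT box, 3 GC boxes and 16 CpG. That of the downstream start had none of the motifs searched and 6 CpG.

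**Figure D2:**
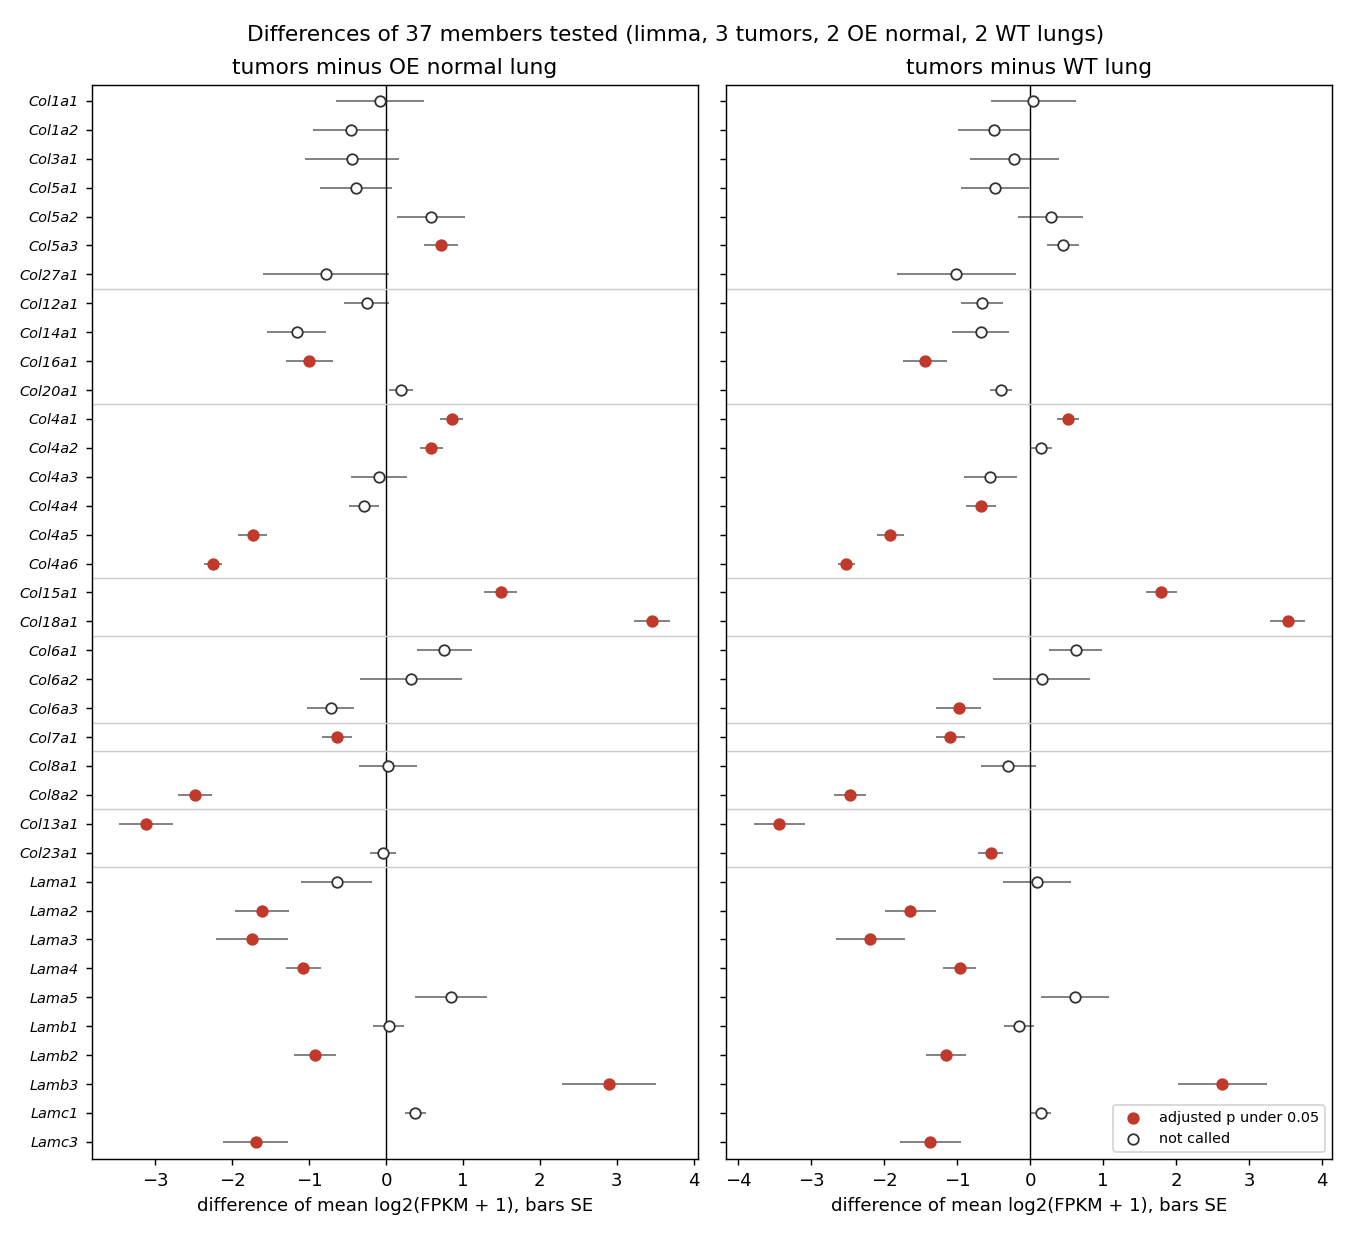
Difference in log2(FPKM + 1) of 37 tested members, tumors minus OE normal lung and tumors minus WT lung, with bars of 1 SE and filled points for members called at an adjusted p below 0.05. Col18a1 (3.46 and 3.53) and Lamb3 (2.90 and 2.63) lie farthest to the right and Col13a1 (-3.12 and -3.44) farthest to the left, while most fibrillar chains have wide bars around 0.

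Among the laminins, 1 of 11 chains was higher and 5 were lower in the tumors, in both comparisons and with the same 6 genes. Over all genes tested 13.1% were higher and 24.9% lower against OE normal lung, and 15.0% and 23.2% against WT lung. The chain that rose was Lamb3, the beta3 chain, which is known mainly from laminin-332, the trimer that anchors epithelium. Lamb3 had 50.6, 196 and 195 FPKM in the tumors, against 20.0 and 12.4 in OE normal lung, and 20.2 and 18.5 in WT lung. Tumors 2 and 3 had nearly the same level, tumor 1 lay between them and the lungs, and all 3 lay above all 4 lungs. The tumor mean was 9.07 times that of OE normal lung (difference 2.90, SE 0.61, limma adjusted p = 0.0125) and 7.61 times that of WT lung (2.63, SE 0.61, adjusted p = 0.0182). The call against OE normal lung ended without OE normal 2 (adjusted p = 0.0892), and that against WT lung without tumor 2, tumor 3 or either WT lung (adjusted p 0.0511 to 0.103). The call against WT lung, where both lungs were male and 2 of 3 tumors female, also ended with sex as covariate (adjusted p = 0.0722).

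Lama3, the alpha3 chain of the same trimer, had the opposite pattern, with 3.75, 0.865 and 0.665 FPKM in the tumors, against 8.33 and 6.25 in OE normal lung, and 12.1 and 8.62 in WT lung. Lama3 was lower, with a difference of -1.75 (SE 0.47, limma adjusted p = 0.0298) against OE normal lung and -2.19 (SE 0.47, adjusted p = 0.0138) against WT lung. The Lamb3 to Lama3 ratio was 13.5, 227 and 293 in tumors 1, 2 and 3, against 2.40 and 1.99 in OE normal lung and 1.68 and 2.15 in WT lung, so that all tumors lay above all lungs.

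Of the other alpha chains, Lama5 is the widespread epithelial chain of laminin-511 and laminin-521, and Lama2 and Lama4 are chains of muscle, nerve and vessel walls. Lama5 had 20.5, 59.7 and 57.2 FPKM in the tumors, 27.3 and 18.7 in OE normal lung, and 27.2 and 26.1 in WT lung. Tumors 2 and 3 lay above all lungs and tumor 1 did not, and the gene was called in neither comparison (limma adjusted p = 0.203 and 0.339). Lama2 had 2.34, 0.612 and 0.626 FPKM in the tumors, 5.72 and 4.93 in OE normal lung, and 4.83 and 6.12 in WT lung. Lama2 was lower, with a difference of -1.61 (SE 0.35, limma adjusted p = 0.0135) against OE normal lung and -1.64 (SE 0.35, adjusted p = 0.0129) against WT lung. Lama4 had 6.96, 3.91 and 4.22 FPKM in the tumors, 12.0 and 10.8 in OE normal lung, and 10.3 and 10.8 in WT lung. Lama4 was lower, with a difference of -1.07 (SE 0.23, limma adjusted p = 0.013) against OE normal lung and -0.97 (SE 0.23, adjusted p = 0.0192) against WT lung. Beside these falls, 10 of 10 endothelial markers and 2 of 3 tested nerve and Schwann cell markers were lower in the tumors in both comparisons. Of 9 smooth muscle and pericyte markers, 6 were lower and 1 was higher in each comparison. All 5 heart muscle markers were lower too, summing to 1.71 to 3.52 FPKM in the tumors, 482 to 1132 in OE normal lung, and 530 to 930 in WT lung. The part of these cells in the results was not tested. Lama1, the chain of the early embryo, had 1.03, 0.0276 and 0.0300 FPKM in the tumors, 0.293 and 2.13 in OE normal lung, and 0.351 and 0.0814 in WT lung, and was not called. As a share of all alpha chain FPKM, Lama5 made up 59.2, 91.7 and 91.2% in tumors 1, 2 and 3, 50.8 and 43.6% in the OE normal lungs, and 49.7 and 50.5% in the WT lungs.

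Lamb1 and Lamb2 are the beta chains of most other laminins, and Lamc1 is the gamma chain of nearly all of them. Lamb2 had 23.0, 13.0 and 12.0 FPKM in the tumors, against 32.4 and 27.8 in OE normal lung, and 34.2 and 36.9 in WT lung. Lamb2 was lower, with a difference of -0.92 (SE 0.27, limma adjusted p = 0.0406) against OE normal lung and -1.16 (SE 0.27, adjusted p = 0.0193) against WT lung. Lamb1 had 17.5, 14.7 and 11.1 FPKM in the tumors, 15.2 and 12.7 in OE normal lung, and 15.2 and 16.7 in WT lung. Lamc1 had 27.5, 25.9 and 22.8 FPKM in the tumors, 20.8 and 17.7 in OE normal lung, and 22.7 and 22.8 in WT lung. Neither was called, and the tumors overlapped the lungs or lay close to them. Lamc3, the gamma3 chain, had 1.31, 0.159 and 0.110 FPKM in the tumors, 4.63 and 2.84 in OE normal lung, and 1.77 and 3.98 in WT lung. Lamc3 was lower, with a difference of -1.69 (SE 0.42, limma adjusted p = 0.0225) against OE normal lung and -1.37 (SE 0.42, adjusted p = 0.0451) against WT lung. Lamb3 made up 55.6, 87.6 and 89.4% of beta chain FPKM in tumors 1, 2 and 3, 29.6 and 23.5% in the OE normal lungs, and 29.0 and 25.7% in the WT lungs, so that the main beta chain was beta3 in the tumors and beta2 in the lungs.

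The calls of the 5 laminins that fell rested in part on single libraries and on the processing. Against OE normal lung, the Lama2 and Lama4 calls ended without either OE normal lung (adjusted p 0.0636 to 0.087), and the Lamc3 call also without tumor 2 or tumor 3 (0.0653 to 0.138). The Lama3 and Lamb2 calls against OE normal lung ended when any 1 library other than tumor 1 was left out (0.0548 to 0.193). Against WT lung, the Lama2 and Lama3 calls ended without either WT lung (0.0574 to 0.094), the Lama4 and Lamb2 calls also without tumor 2 or tumor 3 (0.0533 to 0.116), and the Lamc3 call when any 1 library other than tumor 1 was left out (0.0658 to 0.253). Under other processing, the Lamc3 call against WT lung ended with a pseudocount of 0.1, with no filter, under quantile normalization, with sex as covariate and with only the 2 groups compared (adjusted p 0.0545 to 0.132), and that against OE normal lung under quantile normalization (0.0647). Against OE normal lung, the Lamb2 call also ended with no filter and with only the 2 groups compared (0.0566 to 0.077), and the Lama3 call with only the 2 groups compared (0.0547).

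**Figure D3:**
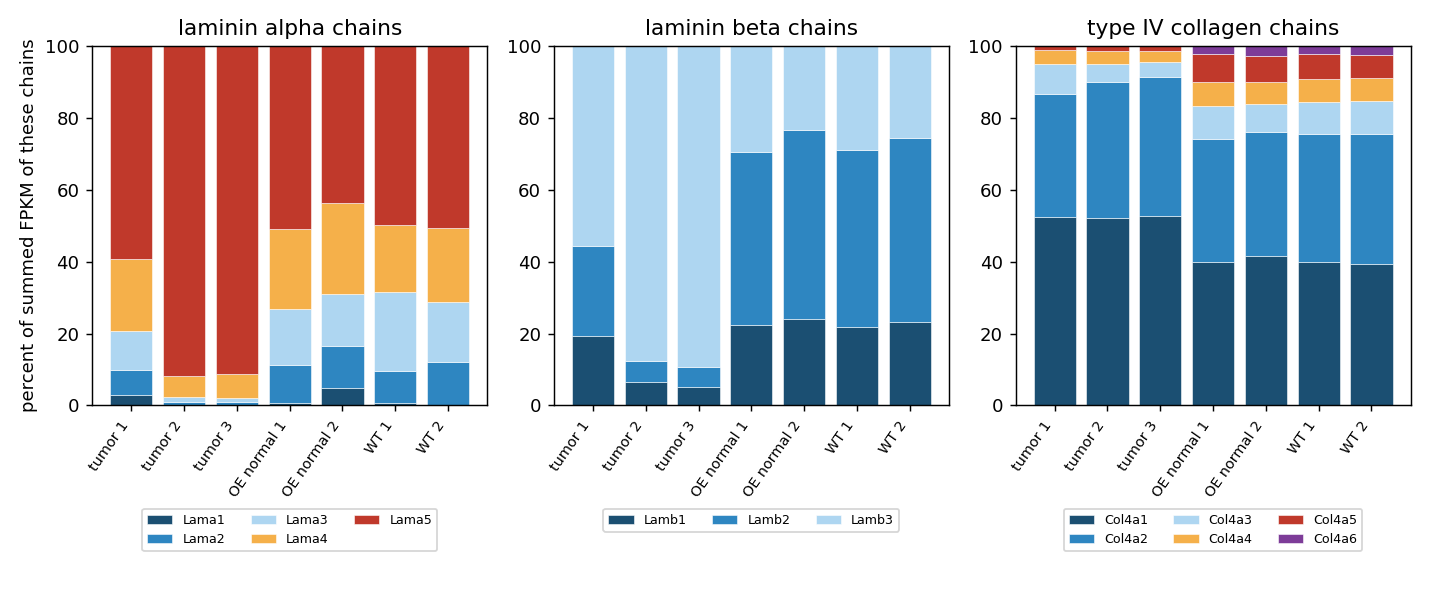
Shares (percent of summed FPKM) of the laminin alpha and beta chains and of the type IV collagen chains in each of the 7 libraries, 1 stacked bar per library. Lama5 and Lamb3 fill most of the alpha and beta bars of tumors 2 and 3, tumor 1 lies between these and the lungs, and Col4a1 takes a larger share of the type IV bar in all 3 tumors.

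The fibrillar collagens did not move as a group. Of 11 members 7 were tested, 1 was higher against OE normal lung and none was called against WT lung. That gene was Col5a3, a minor type V chain, with 1.73, 2.63 and 2.35 FPKM in the tumors, 1.35 and 0.644 in OE normal lung, and 1.15 and 1.59 in WT lung. Col5a3 differed by 0.71 (SE 0.22, limma adjusted p = 0.0459) against OE normal lung, and the call ended without tumor 2, tumor 3, OE normal 2 or either WT lung (adjusted p 0.0743 to 0.242). It also ended in 7 other settings, with a pseudocount of 0.1, no filter, median-of-ratios scaling, both TPM scalings, sex as covariate and only the 2 groups compared (adjusted p 0.0501 to 0.0904). Col1a1 and Col1a2 encode the chains of type I collagen, the main fiber of the lung, and Col3a1 that of type III. Col1a1 had 66.1, 17.9 and 25.3 FPKM in the tumors, 37.9 and 28.8 in OE normal lung, and 20.9 and 43.5 in WT lung. Col1a2 had 61.9, 16.7 and 27.3 FPKM in the tumors, 44.8 and 39.9 in OE normal lung, and 42.6 and 44.4 in WT lung. Col3a1 had 61.2, 12.1 and 21.1 FPKM in the tumors, 39.6 and 30.4 in OE normal lung, and 30.8 and 28.2 in WT lung. In each of these genes tumor 1 lay above all 4 lungs and tumor 2 below all 4. For Col1a2 the difference was -0.46 (SE 0.49, limma adjusted p = 0.493) against OE normal lung and -0.50 (SE 0.49, adjusted p = 0.457) against WT lung. Without tumor 1, Col1a2 was called lower in the remaining tumors, with a difference of -0.95 (adjusted p = 0.0124) against OE normal lung and -0.99 (adjusted p = 0.0109) against WT lung, in fits that called 68.4% and 67.1% of all genes.

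The type V chains, which nucleate fibrils, differed in their balance. Col5a1 had 7.95, 2.15 and 2.52 FPKM in the tumors, 6.28 and 4.03 in OE normal lung, and 5.11 and 5.80 in WT lung. Col5a2 had 20.9, 6.28 and 8.58 FPKM in the tumors, 6.61 and 6.78 in OE normal lung, and 8.54 and 8.45 in WT lung. The Col5a2 to Col5a1 ratio was 2.63, 2.92 and 3.40 in the tumors, above the 1.05 and 1.68 of the OE normal lungs and the 1.67 and 1.46 of the WT lungs, although neither gene was called. Col27a1, a fibrillar chain of cartilage, had 9.02, 0.612 and 0.551 FPKM in the tumors, 3.86 and 4.19 in OE normal lung, and 5.75 and 4.18 in WT lung, and was not called either. The summed FPKM of the 11 fibrillar genes was 232, 58.8 and 88.1 in tumors 1, 2 and 3, 141 and 116 in the OE normal lungs, and 116 and 137 in the WT lungs. The 10 fibroblast markers summed to 368, 89.8 and 100.0 FPKM in tumors 1, 2 and 3, the same order of tumor 1 over tumor 3 over tumor 2. Without Inmt and Mfap4 the other 8 summed to 253, 69.6 and 68.0 FPKM, with tumor 3 not above tumor 2. The part of these markers in the result was not tested.

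Of the 9 fibril-associated collagens, which sit on the surface of fibrils, 4 were tested and 1 was called. Col16a1 had 4.15, 1.53 and 1.99 FPKM in the tumors, 6.03 and 5.53 in OE normal lung, and 7.71 and 8.70 in WT lung. All tumors lay below all lungs, with a difference of -1.0 (SE 0.31, limma adjusted p = 0.0444) against OE normal lung and -1.44 (SE 0.31, adjusted p = 0.0133) against WT lung. The first of these calls ended when any 1 library other than tumor 1 was left out (adjusted p 0.0817 to 0.185), the second without either WT lung (0.0671 to 0.0926). The first also ended with a pseudocount of 0.1, with no filter, under quantile normalization and with only the 2 groups compared (0.0507 to 0.0819). Col14a1, which binds decorin on fibrils, had 4.38, 1.48 and 1.48 FPKM in the tumors, 5.44 and 7.01 in OE normal lung, and 5.09 and 3.34 in WT lung, and missed the threshold (adjusted p = 0.0573 against OE normal lung). Col12a1 and Col20a1 ran from 1.33 to 4.63 FPKM over the 7 libraries and were not called.

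Type VI collagen is built of alpha1, alpha2 and alpha3 chains in equal number. Its balance of transcripts differed from that of the lungs in all 3 tumors, in tumor 1 in another way than in tumors 2 and 3. Col6a1 had 45.9, 85.8 and 110 FPKM in the tumors, 50.8 and 38.8 in OE normal lung, and 50.0 and 47.8 in WT lung. Col6a2 had 12.2, 45.8 and 68.5 FPKM in the tumors, 31.0 and 23.4 in OE normal lung, and 31.3 and 29.5 in WT lung. Col6a3 had 9.47, 4.13 and 5.07 FPKM in the tumors, 11.1 and 9.64 in OE normal lung, and 13.0 and 12.2 in WT lung. Tumors 2 and 3 were thus above all lungs in Col6a1 and Col6a2 and below all lungs in Col6a3. Tumor 1 lay among the lungs in Col6a1, had the lowest Col6a2 of the 7 libraries and was just below the lowest lung in Col6a3. The Col6a1 to Col6a3 ratio was 4.85, 20.8 and 21.7 in tumors 1, 2 and 3, 4.59 and 4.02 in the OE normal lungs, and 3.84 and 3.92 in the WT lungs. The Col6a1 to Col6a2 ratio was 3.75, 1.87 and 1.61 in the tumors, 1.64 and 1.66 in OE normal lung, and 1.60 and 1.62 in WT lung. The Col6a2 to Col6a3 ratio was 1.29, 11.1 and 13.5 in the tumors, 2.80 and 2.43 in OE normal lung, and 2.41 and 2.42 in WT lung. The only call among the 3 was Col6a3 against WT lung (-0.98, SE 0.30, limma adjusted p = 0.0461), which ended when any 1 library other than tumor 1 was left out (adjusted p 0.0809 to 0.194), and with no filter, sex as covariate or only the 2 groups compared (0.0683 to 0.129). Col6a1 differed by 0.76 (SE 0.36, limma adjusted p = 0.145) against OE normal lung and 0.62 (SE 0.36, adjusted p = 0.216) against WT lung. Without tumor 1 it was higher in the remaining tumors by 1.11 (limma adjusted p = 0.00269) against OE normal lung and 0.98 (adjusted p = 0.00452) against WT lung. These fits called 68.4% and 67.1% of all genes, and tumor 1 was left out with its values known.

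Among the collagens of other types, Col13a1 and Col8a2 were at 1.46 FPKM or less in every tumor and at 5.53 FPKM or more in every lung. Col13a1, a transmembrane collagen of cell adhesion sites, had 1.46, 0.133 and 0.172 FPKM in the tumors, against 12.5 and 11.3 in OE normal lung, and 15.0 and 15.2 in WT lung. On the log2(FPKM + 1) scale it had the largest fall among the tested members, with a difference of -3.12 (SE 0.35, limma adjusted p = 0.00132) against OE normal lung and -3.44 (SE 0.35, adjusted p = 9.54e-04) against WT lung. By the ratio of group means the fall of Col4a6 was larger, 143-fold and 179-fold beside 20.2-fold and 25.6-fold for Col13a1. Col8a2, a short-chain collagen that forms hexagonal networks in the cornea, had 0.643, 0.0249 and 0.230 FPKM in the tumors, 5.95 and 6.38 in OE normal lung, and 5.53 and 6.63 in WT lung. Col8a2 was lower, with a difference of -2.49 (SE 0.22, limma adjusted p = 6.25e-04) against OE normal lung and -2.47 (SE 0.22, adjusted p = 6.11e-04) against WT lung. Its partner Col8a1 had 4.95, 1.38 and 2.45 FPKM in the tumors, 2.49 and 2.69 in OE normal lung, and 3.01 and 4.06 in WT lung, and was not called. Col7a1, the anchoring fibril that ties laminin-332 to the stroma, had 1.05, 0.378 and 0.478 FPKM in the tumors, 1.50 and 1.49 in OE normal lung, and 2.49 and 2.39 in WT lung. Col7a1 was lower, with a difference of -0.63 (SE 0.20, limma adjusted p = 0.0463) against OE normal lung and -1.09 (SE 0.20, adjusted p = 0.0072) against WT lung. Against OE normal lung this call ended when any 1 library other than tumor 1 was left out (adjusted p 0.0838 to 0.164) and the difference turned to 0.08 under quantile normalization, and against WT lung it ended without either WT lung (0.0505 to 0.052). The call against OE normal lung also ended with a pseudocount of 0.1, no filter or only the 2 groups compared (0.0522 to 0.082). Col23a1, another transmembrane collagen, had 11.1, 13.0 and 14.3 FPKM in the tumors, 14.3 and 12.0 in OE normal lung, and 16.7 and 21.4 in WT lung. It differed by -0.04 (SE 0.17, limma adjusted p = 0.869) against OE normal lung, a sign that turned under quantile normalization. It was lower against WT lung (-0.54, SE 0.17, adjusted p = 0.0493), a call that ended when any 1 library other than tumor 1 was left out (0.068 to 0.297). It also ended in 6 other settings, with no filter, median-of-ratios scaling, quantile normalization, no mean-variance trend, sex as covariate and only the 2 groups compared (0.0532 to 0.0991).

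Over both comparisons, 15 members were called the same way in each. Col15a1, Col18a1, Col4a1 and Lamb3 were the 4 higher ones, and 11 were lower. Another 2, Col4a2 and Col5a3, were called only against OE normal lung and 3, Col23a1, Col4a4 and Col6a3, only against WT lung, while 18 were called in neither. The difference between the comparisons is that of OE normal against WT lung, in which no member was called. The calls of Col4a5, Col4a6, Col8a2, Col13a1, Col15a1 and Col18a1 held in both comparisons under every alternative in which they were tested, including without any 1 library. In the main fit Col4a6, Col8a2 and Col13a1 passed the level filter only because they were high in the normal lungs, so the stability of their calls carries no further weight.

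The 3 tumors differed widely from each other in these genes. Each tumor is 1 library, so the differences are described and not tested. The gap between the highest and lowest tumor had a median of 1.03 log2 units over the 38 tested members, beside 0.46 over all genes tested, and it exceeded 1 in 20 members (52.6%), beside 16.6% of all genes. The gap between tumors 2 and 3 had a median of 0.17 over the members, beside a median gap of 0.31 within OE normal lung and 0.11 within WT lung. Over all genes tested these medians were 0.097, 0.16 and 0.11. The members thus had wider gaps than all genes within OE normal lung too, so this was not particular to the tumors. Tumor 1 was the one farthest from the other 2 in 30 of the 38 members (78.9%), near the 76.7% of all genes. It was the highest tumor in 24 of these (63.2% of members, beside 47.0% of all genes) and the lowest in 6, which were Col23a1, Col5a3, Col6a1, Col6a2, Lama5 and Lamb3.

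**Figure D4:**
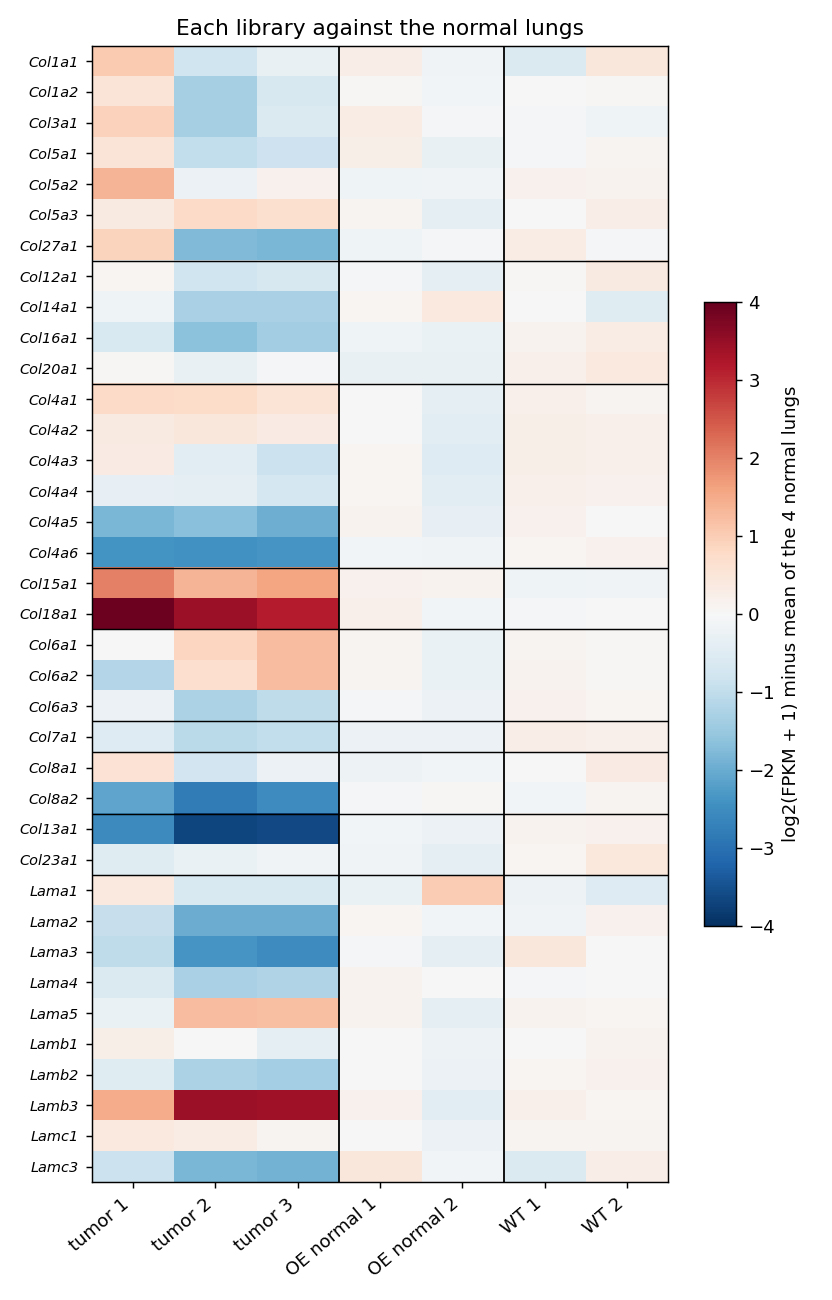
log2(FPKM + 1) of 37 tested members in each library, minus the mean of the 4 normal lungs, with members grouped by class. Tumor 1 is above the mean of the lungs for Col1a1, Col1a2 and Col3a1 where tumors 2 and 3 are below it, the 3 tumors have like colors in most type IV rows and in Col15a1 and Col18a1, and Lamb3 and Lama5 are highest in tumors 2 and 3.

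By class, the split was widest among the fibrillar chains. Tumor 1 was farthest from the others in 7 of 7 tested fibrillar genes and highest in 6, with a median gap of 1.83 log2 units. The type IV genes were the most alike over the tumors, with a median gap of 0.25 and tumor 1 farthest in 1 of 6, Col4a3. Among the laminins tumor 1 was farthest in 9 of 11 genes, highest in 7 and lowest in Lama5 and Lamb3. The summed laminin FPKM was 211, 346 and 327 in tumors 1, 2 and 3, and the summed type IV FPKM 240, 232 and 206. Tumor 1 was thus rich in fibrillar transcripts and tumors 2 and 3 in Lamb3, Lama5, Col6a1 and Col6a2, while type IV sums differed little. Col6a3 was highest in tumor 1 among the tumors. Tumor 1 also differed from the other tumors in sex, in its lower Ezh2 and in its sums of fibroblast markers (368 FPKM, beside 89.8 and 100.0 in tumors 2 and 3), smooth muscle and pericyte markers (429, beside 104 and 131), macrophage markers (2540, beside 630 and 795) and alveolar type 2 markers (43901, beside 12749 and 12732). These cannot be told apart with 1 such library.

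A few chains typical of cartilage were seen mainly in tumor 1. Col9a1, a fibril-associated chain of cartilage, had 0.768, 0.00929 and 0.00629 FPKM in tumors 1, 2 and 3 and was listed at 0 in all 4 lungs. Col10a1, the collagen of hypertrophic cartilage, had 1.11, 0.0935 and 0.0396 FPKM in the tumors and at most 0.0503 FPKM in any lung. Col11a2, a cartilage fibril chain, had 2.47, 0.352 and 0.292 FPKM in the tumors, 0.473 and 0.646 in OE normal lung, and 0.717 and 0.600 in WT lung. Col11a1 had 0.230 FPKM in tumor 1 and 0.0290 FPKM or less in the other 6 libraries. These chains are low, and Col10a1 and Col11a2 reached 1 FPKM in tumor 1 alone, so none was tested. The defining cartilage collagen Col2a1 had 0, 0.00363 and 0.00491 FPKM in the tumors, 0.0364 and 0.0367 in OE normal lung, and 0.0341 and 0.0320 in WT lung. Of 7 cartilage markers 1 was tested, Sox9, a regulator of cartilage that the lung epithelium also uses in development, with 39.3, 12.0 and 7.68 FPKM in the tumors and at most 0.308 FPKM in any lung. Matn1 was at 0 in all 3 tumors and Acan at 0.00413 FPKM or less, so the tumor 1 values came without the main cartilage matrix genes.

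In all, 17 members were not tested, all of them collagens. Of these 14 were below 1 FPKM in all 7 libraries, and the other 3, Col10a1, Col11a2 and Col9a3, reached 1 FPKM in tumor 1 only. The untested transmembrane chain Col17a1, a hemidesmosome protein that binds laminin-332, had 0.153, 0.00328 and 0.00889 FPKM in the tumors, 0.871 and 0.652 in OE normal lung, and 0.734 and 0.753 in WT lung. Col25a1, also transmembrane, had 0.0193, 0.326 and 0.529 FPKM in the tumors and at most 0.0388 FPKM in any lung. Col9a3 had 1.09, 0.576 and 0.797 FPKM in the tumors, 0.548 and 0.435 in OE normal lung, and 0.556 and 0.489 in WT lung. The remaining low members, Col6a4, Col6a5, Col6a6, Col9a2, Col19a1, Col22a1, Col24a1, Col26a1 and Col28a1, did not exceed 0.806 FPKM in any library.

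OE normal lung was set against WT lung to see whether EZH2 overexpression alone came with a difference in matrix chains. No member was called among the 38, nor any gene among all 14057 (limma, 0% of all genes called). Ezh2 itself was thus not called, with 10.2 and 11.5 FPKM in OE normal lung and 3.72 and 2.58 in WT lung. The lack of calls therefore does not show that the members were alike in these lungs. Without tumor 1 in the shared fit, 290 genes (2.06%) and still 0 members were called. At an unadjusted p below 0.05 there were 3 members, Col20a1, Col23a1 and Col4a2, beside 1208 of all genes, and the lowest adjusted p of a member was 0.348. Col20a1, a minor fibril-associated chain, had the lowest, with 1.33 and 1.38 FPKM in OE normal lung, and 2.37 and 2.76 in WT lung. The median difference over the members was -0.24, beside 0.02 over all genes. Among the most abundant member of each tested class, differences lay between -0.50 (SE 0.19) for Col23a1 and 0.07 (SE 0.26) for Col18a1. With 2 lungs in each group the comparison did not call the difference of -0.60 (SE 0.17) in Col20a1, and differences of this size were not detectable at that error. The SE takes in the spread of the tumors and was larger in other members, such as 0.67 for Lamb3 and 0.89 for Col27a1.

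Of the genes that make and modify collagen inside the cell, such as prolyl and lysyl hydroxylases and chaperones, 18 of 20 were tested. Of these, 5 were higher and 2 lower against OE normal lung, beside 13.1% and 24.9% of all genes tested. The counts against WT lung were 4 higher and 3 lower, beside 15.0% and 23.2% of all genes. P4hb, the beta subunit of prolyl 4-hydroxylase and a protein disulfide isomerase, had 425, 343 and 382 FPKM in the tumors, against 172 and 151 in OE normal lung, and 174 and 159 in WT lung. All 3 tumors lay far above all 4 lungs, with a difference of 1.24 (SE 0.15, limma adjusted p = 0.00158) against OE normal lung. Fkbp10, a chaperone of procollagen, was also higher against OE normal lung (0.90, SE 0.16, adjusted p = 0.00701), as were Leprel1, a prolyl 3-hydroxylase acting on type IV collagen (1.25, SE 0.35, adjusted p = 0.035), Serpinh1, the collagen chaperone HSP47, and Ctage5. Leprel2, another prolyl 3-hydroxylase (-1.21, SE 0.38, adjusted p = 0.0473), and Colgalt2, a collagen galactosyltransferase, were lower. The Leprel1 and Leprel2 calls ended when any 1 library other than tumor 1 was left out (adjusted p 0.068 to 0.185), and with no filter or only the 2 groups compared (0.0535 to 0.0871 over these and the other settings that ended them, TPM scaling for Leprel1 and a pseudocount of 0.1 for Leprel2).

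Of 14 genes that trim or crosslink collagen outside the cell 11 were tested. Of these, 1 was higher and 5 were lower against OE normal lung, beside 13.1% and 24.9% of all genes tested. The counts against WT lung were 2 higher and 5 lower, beside 15.0% and 23.2% of all genes. The 1 higher against OE normal lung was Bmp1, the procollagen C-proteinase. It had 137, 61.2 and 73.8 FPKM in the tumors, against 22.1 and 14.8 in OE normal lung, and 22.5 and 26.7 in WT lung (2.18, SE 0.36, limma adjusted p = 0.00527 against OE normal lung). Both enhancers of that enzyme fell. Pcolce2 had 4.25, 0.226 and 1.05 FPKM in the tumors, against 68.3 and 70.5 in OE normal lung, and 88.5 and 94.2 in WT lung (-4.90, SE 0.56, adjusted p = 0.00143 against OE normal lung). Pcolce was lower, with a difference of -2.46 (SE 0.61, adjusted p = 0.0218), a call that ended without tumor 3 or either OE normal lung (0.0659 to 0.118). Pxdn, the peroxidase that crosslinks type IV collagen, was lower, with a difference of -2.13 (SE 0.46, adjusted p = 0.0139), a call that ended without OE normal 1 (0.0965). Adamts14 and Tll1 were the other 2 lower genes.

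Among 15 partners of the basement membrane 12 were tested. Of these, 1 was higher and 3 were lower against OE normal lung, beside 13.1% and 24.9% of all genes tested. The counts against WT lung were 1 higher and 5 lower, beside 15.0% and 23.2% of all genes. The higher one was Nid2, nidogen 2, a linker of laminin and type IV collagen, with 4.32, 4.61 and 4.67 FPKM in the tumors, 2.14 and 2.50 in OE normal lung, and 2.62 and 2.55 in WT lung. Ntn4, a netrin that disrupts laminin networks, had 3.10, 0.696 and 1.11 FPKM in the tumors, against 31.1 and 22.6 in OE normal lung, and 31.9 and 41.0 in WT lung (-3.49, SE 0.39, limma adjusted p = 0.00129 against OE normal lung). Npnt, nephronectin, was lower, with a difference of -1.39 (SE 0.34, adjusted p = 0.0213), a call that ended without either OE normal lung (0.0629 to 0.135), and Smoc1 was the third. Npnt was also on the fibroblast list.

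Among 19 partners of the fibrils 17 were tested. Of these, 2 were higher and 5 lower against OE normal lung, beside 13.1% and 24.9% of all genes tested. The counts against WT lung were 3 higher and 6 lower, beside 15.0% and 23.2% of all genes. Vcan, the proteoglycan versican, had 10.7, 15.3 and 15.7 FPKM in the tumors, against 1.20 and 0.905 in OE normal lung, and 0.581 and 0.700 in WT lung (2.85, SE 0.20, limma adjusted p = 3.37e-04 against OE normal lung), and Fn1, fibronectin, was the other higher gene. Ogn, a small leucine-rich proteoglycan of fibroblasts, had 6.73, 0.146 and 2.21 FPKM in the tumors, against 104 and 103 in OE normal lung, and 109 and 105 in WT lung (-5.10, SE 0.72, adjusted p = 0.00298 against OE normal lung). Tnxb, tenascin X, was lower, with a difference of -3.44 (SE 0.17, adjusted p = 2.52e-04) and Prelp by -2.58 (SE 0.79, adjusted p = 0.0442), the Prelp call ending when any 1 library other than tumor 1 was left out (0.0799 to 0.176) and with no filter or only the 2 groups compared (0.0668 to 0.0799). Aspn and Postn were the other 2 lower genes.

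Of 16 receptors for collagen and laminin 14 were tested. Of these, 1 was higher and 3 were lower against OE normal lung, beside 13.1% and 24.9% of all genes tested. The counts against WT lung were 3 higher and 4 lower, beside 15.0% and 23.2% of all genes. Itga7, the alpha chain of a laminin-binding integrin, had 8.49, 16.3 and 18.0 FPKM in the tumors, against 5.34 and 4.29 in OE normal lung, and 4.20 and 4.29 in WT lung (1.34, SE 0.31, limma adjusted p = 0.0179 against OE normal lung). Ddr2, a receptor kinase for fibrillar collagen found on fibroblasts, was lower, with a difference of -1.96 (SE 0.37, adjusted p = 0.00849), Itga1, of the type IV collagen receptor, by -1.36 (SE 0.13, adjusted p = 7.30e-04), and Itgb4, the hemidesmosome receptor of laminin-332, by -0.83 (SE 0.24, adjusted p = 0.0366). The Itga7 call ended without tumor 2 or either OE normal lung (0.0566 to 0.113), the Ddr2 call without either OE normal lung (0.0561 to 0.0572), and the Itgb4 call when any 1 library other than tumor 1 was left out (0.0671 to 0.176), and with no filter, quantile normalization or only the 2 groups compared (0.058 to 0.115).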

How the data were processed

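RNA-seq of mouse lung was analysed from the authors' deposited FPKM values per gene, 1 table for each of 7 libraries. Per the submitters' processing notes the tools were TopHat, TopHat2 and Cufflinks 2.0.0 and the build mm9; the sources used here do not give the strand setting or annotation, so genes that overlap cannot be told apart. Of 22474 rows 27 with date-like names were dropped. Read depth is unknown beyond a relative estimate from low FPKM steps. Groups came from the labels. The fit was limma 3.58.1 (R 4.3.3, empirical Bayes with trend) on log2(FPKM + 1), all 7 libraries in 3 groups, 2-sided, for genes reaching 1 FPKM in 2 or more libraries, and was tested on simulated data. Per-library values are given for members called or with a group mean of at least 5 FPKM, and statistics for called members and the most abundant of each class; from the pathway lists, up to 4 called genes each. The values of 1 member, which counts and sums include, are not reported here. The members, lists and tests were chosen with earlier results of these data known. Alternatives were the pseudocount, filter, scaling, trend, replicate block, sex, the groups fitted and each library left out.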

Additional observations from a re-analysis of the deposited data

How the results depend on the processing

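Against OE normal lung the count of members called, 17 (6 higher, 11 lower), was 9 with a replicate block and 11 with only the 2 groups compared. With each library left out in turn it was 7 to 29, the highest, 29, being without tumor 1, where 68.4% of all genes were called, and the lowest without OE normal 2. Against WT lung the count, 18 (4 higher, 14 lower), was 8 with a replicate block and 6 to 30 with each library left out, 30 without tumor 1 and 6 without either WT lung. Under the other alternatives the counts stayed within 1.5 times. The split against OE normal lung under TPM scaling was 4 higher and 14 lower, with small RNA genes also removed 4 and 13, and 8 and 8 under quantile normalization. The median of all genes in that comparison was -0.11, and these scalings put it at -0.35, -0.27 and 0.13. OE normal against WT lung gave 0 calls among the members under each alternative, while 290 of all genes were called without tumor 1. The labels do not say whether replicate numbers pair animals. The deviations of same-numbered libraries correlated at -0.03 to 0.03, which cannot decide this, since the deviations in a group of 2 mirror each other. Number 1 was male and number 2 female in both the tumors and the OE normal lungs, while both WT lungs were male. The cause of the lower counts with a block was not tested. With the block the adjusted p of Lamb3 was 0.0549 against OE normal lung and 0.0733 against WT lung, that of Col4a1 against WT lung 0.0831, and those of all named genes whose calls it ended 0.0548 to 0.180. A lone library left in a group is assumed to vary like the other groups.

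Some differences turned sign. Against OE normal lung, Col23a1 was 0.0826 and Col7a1 0.0809 under quantile normalization, and Col23a1 ranged from -0.154 to 0.0739 with each library left out. Against WT lung, Col1a2 was 0.12 with sex as covariate. For OE normal against WT lung, Col18a1 was -0.0135 under quantile normalization, Col1a2 was 0.0917 after rescaling to TPM, 0.00346 under quantile normalization and 0.42 with sex as covariate, and Col8a2 was -0.00841 under median-of-ratios scaling and -0.0926 under quantile normalization. In that comparison the ranges with each library left out were -0.0894 to 0.226 for Col18a1, -0.122 to 0.0417 for Col1a2, -0.327 to 0.0549 for Col6a1, -0.0920 to 0.132 for Col8a2 and -0.597 to 0.0487 for Lamb3.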
